A study of Mus musculus with 36 samples.

Results

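Periostin (Postn), osteonectin (Sparc), Ccdc80, fibulin-2 (Fbln2) and fibronectin (Fn1) are secreted glycoproteins of the extracellular matrix. They were followed in Erbb2-transfected NIH3T3 cells, an immortal mouse fibroblast line, after tetracycline. The 5 genes, of 9930 genes named on the arrays, were taken by platform gene symbol and are read by 11 probes: 1 each for Postn, Ccdc80 and Fbln2, 3 for Sparc and 5 for Fn1. They were chosen with their differences from untreated cells known, so those differences are given as a description and carry no p-value here.

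Matricellular proteins such as periostin and osteonectin are released into the matrix and tune how cells hold on to it, rather than forming its main scaffold. Fibronectin is the adhesive fibril that cells grip through integrins, and fibulins bind fibronectin and elastic fibres. Fibroblasts are a main source of all of these proteins, and Erbb2 is a receptor tyrosine kinase whose signal runs through ERK and AKT kinases.

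The Erbb2 transgene is under tet-off control, in which tetracycline is meant to shut the transgene down. Cells were taken after 1, 2, 4, 12 and 24 h and 3, 5 and 7 days of tetracycline, with 4 dual-colour cDNA arrays at each time, and set against the untreated line. Channel 2 held untreated Erbb2 cells on every array per the source names, and replicates 1 and 2 carried channel 1 in Cy5 while replicates 3 and 4 carried it in Cy3. The labels do not say whether replicates were separate cultures or how many clones the line holds, so the spread between arrays may be technical. The protocols speak instead of organs and of a pooled reference from control animals, and the design text of different untreated lines, so the contents of the untreated arrays are not settled.

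Values are log2 ratios of channel 1 over channel 2, with each array's median at 0 and the Cy3 arrays multiplied by -1. The files do not state which channel is the numerator. Cy5 over Cy3 was assumed, which makes the turned values treated over untreated. Every sign below would turn if the ratio were Cy3 over Cy5. If the deposited ratios were already channel 1 over channel 2, the Cy3 arrays should not have been turned. Results without turning are given at the end, and they are not a mirror image of those below. A ratio holds no level, so neither the level of a gene nor the markers that define a fibroblast could be checked, and no probe's level is set against another's. In bulk RNA, fewer cells making a transcript and less of it per cell cannot be told apart. No probe on the arrays is annotated as Erbb2, so the transgene itself was not analysed here.

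Some arrays stand apart. Untreated replicates 1 and 2 differed by a constant (SD 0.000507 over 19772 values) and were counted as 1 array, which leaves 3 untreated arrays and 35 in all. The interquartile range of the values was 0.695 to 1.42 on the arrays of 3 to 7 days, while the early arrays had 0.357 to 0.504 and the untreated arrays 0.493 to 0.700. Estimated array weights were 0.0921 to 0.624 at 3 days, where replicates 3 and 4 had the lowest 2 of all arrays, and 0.301 to 0.553 at 5 and 7 days. The untreated array merged from replicates 1 and 2, which enters every difference from untreated, had a weight of 0.277, against 1.68 and 0.997 for the others of its group. The 5 and 7 day values had slid against the probe rows and were moved back. Between 17341 and 19945 probes per array held a value. The limma fit used below gives every array the same weight and each probe 1 variance for all groups. Its SE therefore follows the number of arrays in a group, not the wider spread of the late arrays.

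RefSeq (GRCm38.p6) lists promoters for Postn, Sparc and Fbln2. The 150 bases before a start are shown in lower case, 5′ to 3′ on the gene's strand, because these 3 genes had higher values late than early in the course. Capitals mark letters matching any of 5 motifs searched on both strands: the TATA box (TATAAA), the CCAAT box, the Sp1 box (GGGCGG), the AP-1 site (TGANTCA) and the EGR site (GCGNGGGCG). Postn has 2 listed starts: the window of the upstream one (chr3:54359117-54359266, plus strand), directly before the annotated gene start, holds none of the 5 motifs, and that of the downstream one is shown (chr3:54360957-54361106, plus strand); Sparc is at chr11:55420081-55420230 (minus strand) and Fbln2 at chr6:91212614-91212763 (plus strand).
Postn: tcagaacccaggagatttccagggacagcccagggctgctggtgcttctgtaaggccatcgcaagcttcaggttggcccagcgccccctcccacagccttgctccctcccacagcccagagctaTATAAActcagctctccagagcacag
Sparc: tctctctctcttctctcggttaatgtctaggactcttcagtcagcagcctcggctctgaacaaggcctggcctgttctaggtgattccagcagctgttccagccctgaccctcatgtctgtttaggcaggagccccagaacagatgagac
Fbln2: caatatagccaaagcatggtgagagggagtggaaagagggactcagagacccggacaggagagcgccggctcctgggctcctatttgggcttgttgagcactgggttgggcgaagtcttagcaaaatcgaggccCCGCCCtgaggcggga
The downstream Postn window holds TATAAA from 26 to 21 bases before the start, letters found in 8.08% of the 27025 windows of this length. The Fbln2 window holds GGGCGG on the minus strand, 16 to 11 bases before the start, as do 29.0% of windows on either strand. The Sparc window holds none of the 5, the shares of the other 3 motifs being 25.3% (CCAAT), 4.27% (TGANTCA) and 3.79% (GCGNGGGCG). A match is a match of letters only. Fn1 lies at chr1:71585473-71653280 and Ccdc80 at chr16:45093407-45127924 in the same build.

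Postn was the member with the largest early difference: it was far below the untreated arrays from the first hour to 24 h, back near them at 3 days, and above them at 7 days. Periostin binds collagen and integrins and helps collagen to be cross-linked. On the 1 h arrays Postn read -1.85, -2.20, -1.81 and -1.74, against -0.19, -0.22 and 0.31 on the untreated arrays. At 2 h it read -1.77, -2.11, -1.98 and -2.45. All 8 of these treated arrays lie well below the 3 untreated ones.

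At 4 h Postn read -1.45, -1.27, -1.64 and -2.12. The 12 h arrays read -2.39, -1.73, -1.77 and -1.49, and the 24 h arrays -2.18, -1.53, -1.93 and -1.55. Every early array therefore sat between -2.45 and -1.27, with no overlap with the untreated arrays at any of the 5 early times. Over all probes 3.83%, 3.87%, 2.74%, 2.89% and 2.90% lay wholly below the untreated arrays at 1, 2, 4, 12 and 24 h. At 3 days the values scattered around those of the untreated arrays, at -0.57 and -0.38 with channel 1 in Cy5 and 0.91 and 0.17 in Cy3. The 5 day arrays read -0.91, -0.56, -0.37 and -0.85, below the untreated arrays again. The 7 day arrays read 0.58, 1.18, 0.90 and 0.78, all above them.

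In the limma fit over all probes, the Postn difference from untreated was -1.84 at 1 h, -2.02 at 2 h, -1.56 at 4 h, -1.79 at 12 h and -1.74 at 24 h (SE 0.28 each), and all 5 passed as lower. It was 0.09 at 3 days, -0.61 at 5 days and 0.92 at 7 days (SE 0.28 each), and none of these passed. When replicate 4 of every group is left out the early differences are -1.71, -1.71, -1.22, -1.72 and -1.64 at 1, 2, 4, 12 and 24 h, and none is called. Postn was the only one of the 11 probes to pass at 1, 2, 4, 12 or 24 h, among shares of all probes called lower of 0.148%, 0.130%, 0.0591%, 0.0110% and 0.0110%. These 8 comparisons share the same 3 untreated arrays.

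**Figure D1:**
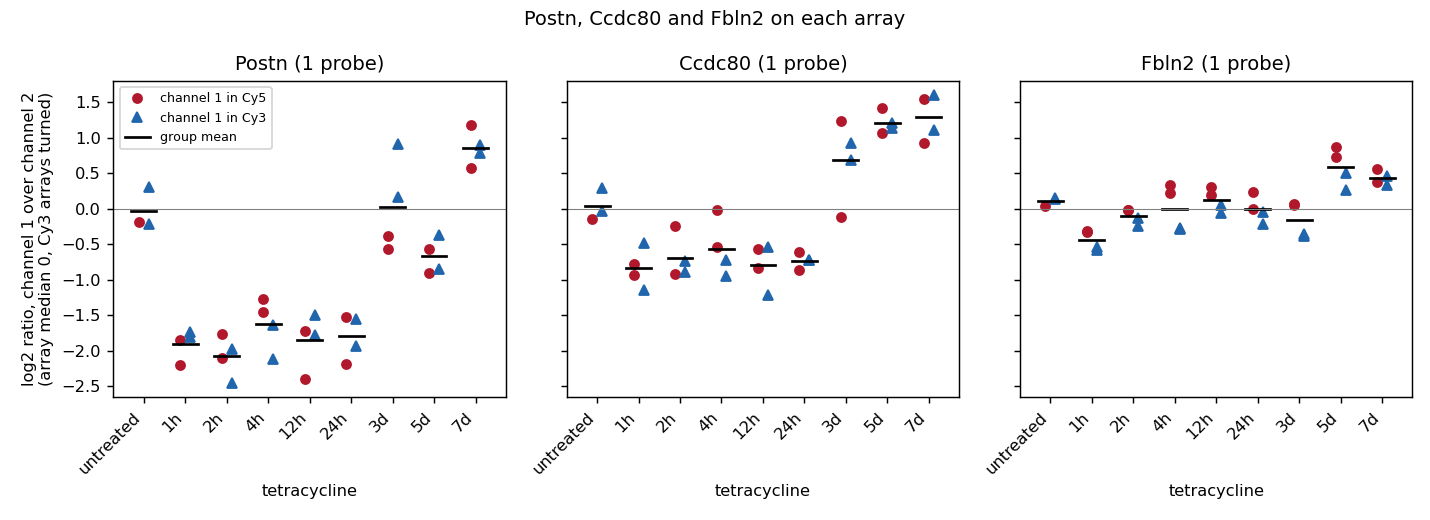
Log2 ratio of Postn, Ccdc80 and Fbln2 on each array (vertical axis) in untreated cells and at each time of tetracycline (horizontal axis). Points are arrays, by the dye of channel 1, and black lines are group means of 4 arrays (3 untreated). Postn lies between -2.45 and -1.27 at 1 to 24 h, and Ccdc80 changes side between 24 h and 3 days.

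All 3 Sparc probes averaged below the untreated arrays at 1 h and above them from 12 h on, and at 7 days every array lay above them. The probes differed in between: at 2 and 4 h probes 5137 and 8471 still averaged below the untreated arrays, while probe 11087 averaged slightly above them. Osteonectin is a collagen-binding, calcium-binding glycoprotein that alters cell shape and collagen assembly. Probe 5137 read -1.01, -1.16, -1.05 and -1.10 at 1 h, against -0.09, -0.06 and -0.00 on the untreated arrays. At 4 h it read -0.29, -0.23, -0.48 and -0.87, and at 12 h 0.33, 0.19, 0.56 and 0.67. The 4 arrays of 1 h and of 4 h all lay below the untreated arrays and those of 12 h all above them. Of all probes 3.83% and 2.74% lay below at 1 and 4 h, and 3.13% above at 12 h.

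Probe 5137 of Sparc then read 0.49, 0.37, 0.49 and 0.53 at 24 h and 0.40, 0.32, 0.35 and 0.12 at 5 days. At 7 days it read 1.21, 1.04, 0.75 and 0.99. The 3 day arrays were split by dye, at 0.10 and -0.62 in Cy5 and 1.36 and 2.01 in Cy3, and overlapped the untreated arrays. Its difference from untreated was -0.997 at 1 h and 1.08 at 7 days (SE 0.33 each) and did not pass at any time.

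The other Sparc probes had smaller differences at 1 h. At 2 and 4 h the difference from untreated was -0.71 and -0.43 on probe 8471 (SE 0.19 each) and 0.18 and 0.11 on probe 11087 (SE 0.22 each), and none passed. Probe 8471 averaged -0.74 ± 0.21 at 1 h, 0.23 ± 0.14 at 12 h and 0.79 ± 0.13 at 7 days (SD, n = 4 each), against -0.04 ± 0.15 on the untreated arrays (SD, n = 3). Probe 11087 averaged -0.61 ± 0.17, 0.26 ± 0.17 and 0.86 ± 0.16 at the same times (SD, n = 4 each), against -0.27 ± 0.27 on the untreated arrays (SD, n = 3). On probe 11087 the 1 h arrays overlapped the untreated ones, and the 7 day arrays of both probes lay above them. Over the 9 group means the 3 probes correlated pairwise at r = 0.89 to 0.97, and over 35 arrays with the dye effect taken out at 0.71 to 0.88, as a description of probes that share these arrays.

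Probe 11087 of Sparc was called higher at 3 days, by 0.97 (SE 0.22), where 0.380% of probes were called higher. It was the sole member probe to pass at that time, and as the mean of the 3 probes the difference was 0.69 and did not pass. Its 3 day arrays read 0.02 and 0.11 in Cy5 and 1.55 and 0.99 in Cy3. Fitting the dye separately in every group gave 0.91, and the call held. Without replicate 3 of every group it was 0.53 and was not called. Leaving out 1 replicate of every group, or 1 untreated array, gave 0.53 to 1.28. The call is also lost without replicate 4, without untreated replicate 3 or 4, without a dye effect (0.93), with array weights, with uncentred, scaled or quantile-normalized arrays, and with the 5 and 7 day rows as deposited. At 7 days probes 8471 and 11087 passed as higher, by 0.82 (SE 0.19) and 1.17 (SE 0.22), and the call of probe 8471 is lost with uncentred (0.56), scaled (0.57) or quantile-normalized (0.61) arrays.

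Ccdc80 had 2 plateaus, below the untreated arrays up to 24 h and above them at 5 and 7 days. Ccdc80 is a secreted protein that binds matrix components and was described in adipocyte precursors and fibroblasts of the mouse. At 1 h it read -0.93, -0.77, -1.15 and -0.48, against -0.15, -0.03 and 0.30 on the untreated arrays. At 24 h it read -0.61, -0.87, -0.73 and -0.73. All 20 arrays of 1 to 24 h were below 0, between -1.22 and -0.02, and at 1, 2, 12 and 24 h they did not overlap the untreated arrays. Of all probes 3.83%, 3.87%, 2.89% and 2.90% lay wholly below the untreated arrays at these 4 times.

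Ccdc80 read 1.23, -0.11, 0.69 and 0.93 at 3 days, overlapping the untreated arrays. The 5 day arrays read 1.06, 1.41, 1.14 and 1.21 and the 7 day arrays 1.55, 0.93, 1.10 and 1.60. All 8 lay above the untreated arrays, as for 4.85% of all probes at 5 days and 3.77% at 7 days. The difference from untreated was 1.15 at 5 days and 1.24 at 7 days (SE 0.26 each), and both passed as higher. Both calls are lost with uncentred, scaled or quantile-normalized arrays. At 5 days Ccdc80 was the sole one of 10 member probes to pass, where 1.26% of probes were called higher. Its early differences of -0.61 to -0.88 (SE 0.26 each) did not pass.

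Fbln2 had fitted differences from untreated between -0.59 and 0.44. Fibulin-2 links fibronectin and other ligands in the matrix and is found around elastic fibres and basement membranes. At 1 h it read -0.33, -0.31, -0.54 and -0.58, against 0.04, 0.15 and 0.13 on the untreated arrays. At 5 days it read 0.87, 0.73, 0.26 and 0.50 and at 7 days 0.56, 0.38, 0.47 and 0.34. The 1 h arrays were all below the untreated arrays and those of 5 and 7 days all above them. Of all probes 3.83% lay wholly below at 1 h, and 4.85% and 3.77% wholly above at 5 and 7 days. The differences of -0.59 at 1 h, 0.44 at 5 days and 0.28 at 7 days (SE 0.13 each) did not pass. At 3 days Fbln2 averaged -0.16 ± 0.25 (SD, n = 4), with 0.06 and 0.05 in Cy5 and -0.38 and -0.36 in Cy3.

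Fn1 ran against the other 4 genes at the end of the course: it was lowest at 7 days. Probe 19922 read -1.29, -1.19, -1.39 and -1.51 at 7 days, against -0.13, 0.18 and 0.28 on the untreated arrays. Probe 3995 read -0.77, -1.10, -0.96 and -0.96 at 7 days, against -0.02, -0.06 and 0.29 untreated. Probe 1795 read -0.68, -0.78, -0.93 and -0.95 at 7 days, against 0.01, 0.24 and 0.27 untreated. On all 3 probes each 7 day array lay below each untreated array.

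Probe 1347 of Fn1 read -1.10, -1.002, -0.65 and -1.26 at 7 days, against -0.18, 0.10 and 0.46 untreated, again without overlap. The difference from untreated at 7 days was -1.45 (SE 0.19) on probe 19922, -1.001 (SE 0.17) on probe 3995 and -1.04 (SE 0.19) on probe 1795, all called lower. It was -1.06 (SE 0.35) on probe 1347, which did not pass. Scaling all arrays to 1 spread ended the call of probe 1795 (-0.76), and quantile normalization that of probe 3995 (-0.77). Probe 18348 has no value at 5 and 7 days because it lies beside a point where the rows had slid.

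At 1 h Fn1 was also low: its 5 probes averaged -0.23, -0.54, -0.55, -0.46 and -0.45 (n = 4 each), against 0.13, 0.17, 0.07, 0.19 and 0.11 untreated (n = 3 each), and none passed. On 4 of the 5 probes each 1 h array lay below each untreated array. At 2 h all 5 probes overlapped the untreated arrays, and the probe means lay between -0.33 and 0.04. The 3 day arrays of probe 1347 were split by dye, at -0.52 and -1.03 in Cy5 and 0.74 and 1.95 in Cy3. Over the 9 groups, 7 for probe 18348, the probe means correlated at r = 0.30 to 0.96. Over the arrays, with the dye effect taken out, the probes correlated pairwise at 0.26 to 0.79.

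**Figure D2:**
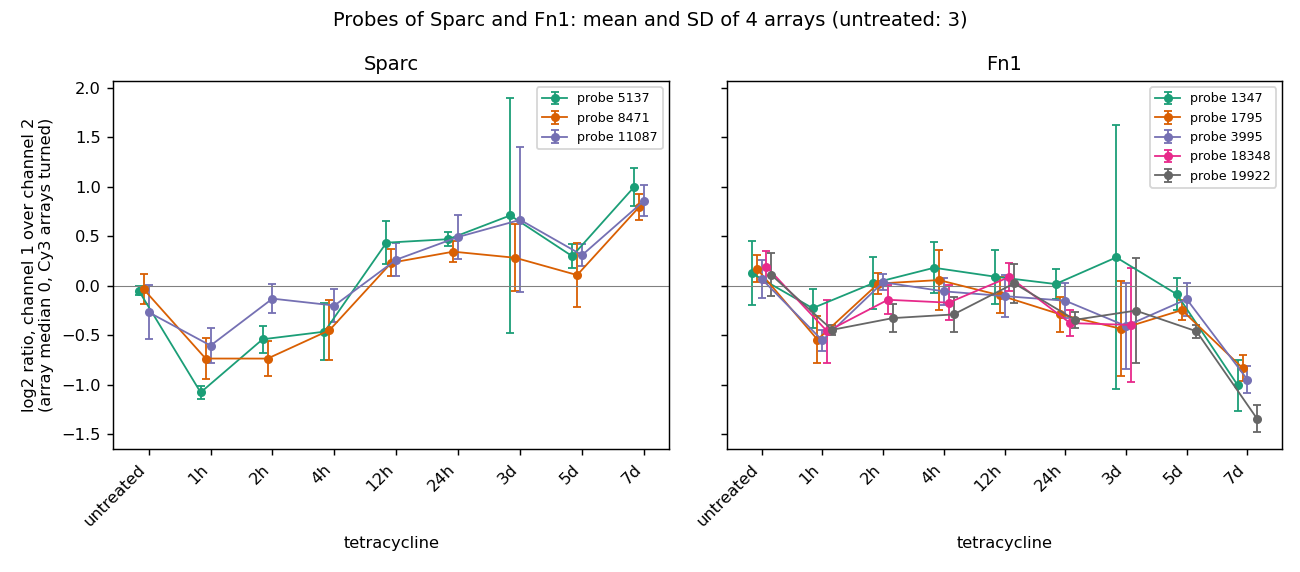
Mean log2 ratio of each Sparc and Fn1 probe (vertical axis) in untreated cells and at each time of tetracycline (horizontal axis). Bars are the SD of 4 arrays, or 3 untreated arrays. Sparc probes lie above 0 from 12 h on, Fn1 probes near -1 at 7 days, and the SD is widest at 3 days.

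At 7 days 3 of 10 member probes were called higher and 3 lower, among shares of all probes of 0.584% and 0.491%. Counted by overlap alone, 6 of the 10 lay wholly above the untreated arrays and 4 wholly below, where 3.77% and 3.85% of all probes did. At 1 h 9 of 11 member probes lay wholly below the untreated arrays and none above, against 3.83% of all probes below. Taken per gene, as the mean of its probes, the members' median difference from untreated was -0.67 at 1 h, -0.33 at 2 h, -0.23 at 4 h, -0.12 at 12 h and -0.35 at 24 h. It was 0.09 at 3 days, 0.38 at 5 days and 0.92 at 7 days. The median over all genes tested lay between 0.00 and 0.04 at these times. Because the genes were chosen on these differences, nothing is read from their excess over the shares of all probes.

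**Figure D3:**
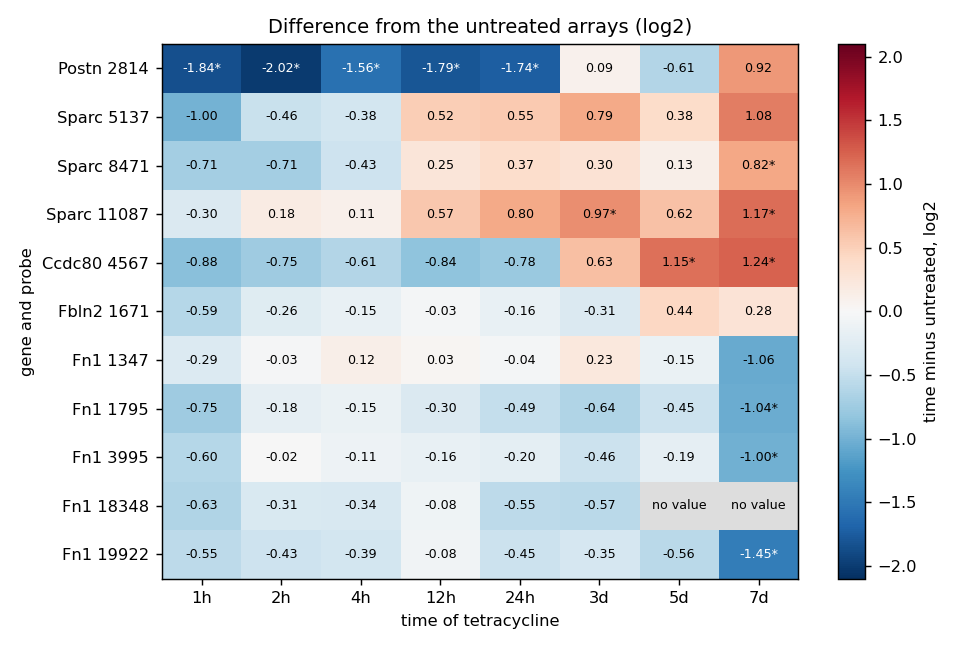
Difference of each member probe from the untreated arrays (colour and number, log2) at each time of tetracycline (columns). An asterisk marks an adjusted p under 0.05 over all probes, and grey marks a probe with no value. Every probe is below 0 (blue) at 1 h, and Postn is the deepest blue at each time up to 24 h. At 7 days Fn1 is blue while the other genes are red.

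Removing the widely scattered 3 day arrays from the fit, an alternative chosen after the data were seen, raised the number of member calls over the other 7 times to 25, against 12 at these times with those arrays included. At 1 h 6 of 11 probes then passed as lower: Postn, Sparc probe 5137, Fbln2 and Fn1 probes 1795, 3995 and 19922, where 0.684% of all probes were called in either direction. At 7 days 5 of 10 probes passed as higher (Postn, all 3 of Sparc, and Ccdc80) and all 4 measured Fn1 probes as lower, where 3.26% of all probes were called. The estimates themselves moved little: Sparc probe 5137 at 1 h was -1.04 and Fn1 probe 19922 at 7 days -1.46.

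The steps between neighbouring times do not use the untreated arrays, but they do use the treated arrays whose differences were known when the genes were chosen, so they too are descriptions. No member probe passed between 1 and 2 h, 2 and 4 h, 4 and 12 h, or 12 and 24 h, steps in which 0.0211%, 0.00517%, 0.0529% and 0.00% of all probes passed in either direction. From 24 h to 3 days Postn was higher by 1.83 (SE 0.26) and Ccdc80 by 1.41 (SE 0.24), the 2 of 11 probes to pass, where 0.299% of all probes were called higher. For both genes, and no other member probe, each 3 day array lay above each 24 h array, as for 1.99% of all probes. From 3 to 5 days Fbln2 passed as higher, by 0.75 (SE 0.12), the sole one of 10 probes, where 1.66% were called higher.

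From 5 to 7 days the genes parted. Postn was higher at 7 days by 1.53 (SE 0.26) and Sparc probe 8471 by 0.69 (SE 0.18), while Fn1 probes 3995 and 19922 were lower by -0.81 (SE 0.16) and -0.89 (SE 0.18). These are 2 of 10 probes higher and 2 lower, where 0.604% and 1.35% of all probes were called. Each 7 day array lay above each 5 day array on Postn and on all 3 Sparc probes, and below on all 4 measured Fn1 probes, as for 2.64% and 2.80% of all probes. Ccdc80 differed by 0.09 (SE 0.24) and Fbln2 by -0.15 (SE 0.12) in this step, and neither passed.

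With the mean of 3, 5 and 7 days set against the mean of the 5 earlier times, 6 of 10 member probes were called higher and 3 lower, where 3.85% and 4.30% of all probes were. Postn averaged 0.07 late and -1.85 early, a difference of 1.92 (SE 0.13). Ccdc80 averaged 1.06 late and -0.72 early, a difference of 1.78 (SE 0.13). These 2 genes changed most, and every one of the 20 early arrays was below 0 for both.

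The 3 Sparc probes were higher late by 0.90 (SE 0.16), 0.66 (SE 0.09) and 0.65 (SE 0.11), and Fbln2 by 0.38 (SE 0.06). Fn1 was lower late on probes 1795, 3995 and 19922, by -0.33 (SE 0.09), -0.33 (SE 0.08) and -0.41 (SE 0.09). These 3 Fn1 differences shrank to between -0.14 and -0.10 under scaling or quantile normalization and were then not called. They also were not called when arrays were not centred. With the 3 day arrays left out of the fit, the late mean being that of 5 and 7 days, all 10 probes passed, 6 higher and 4 lower, where 11.8% of all probes were called. The wider spread of the late arrays moves with this comparison, and its part in the differences was not tested beyond these settings.

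**Figure D4:**
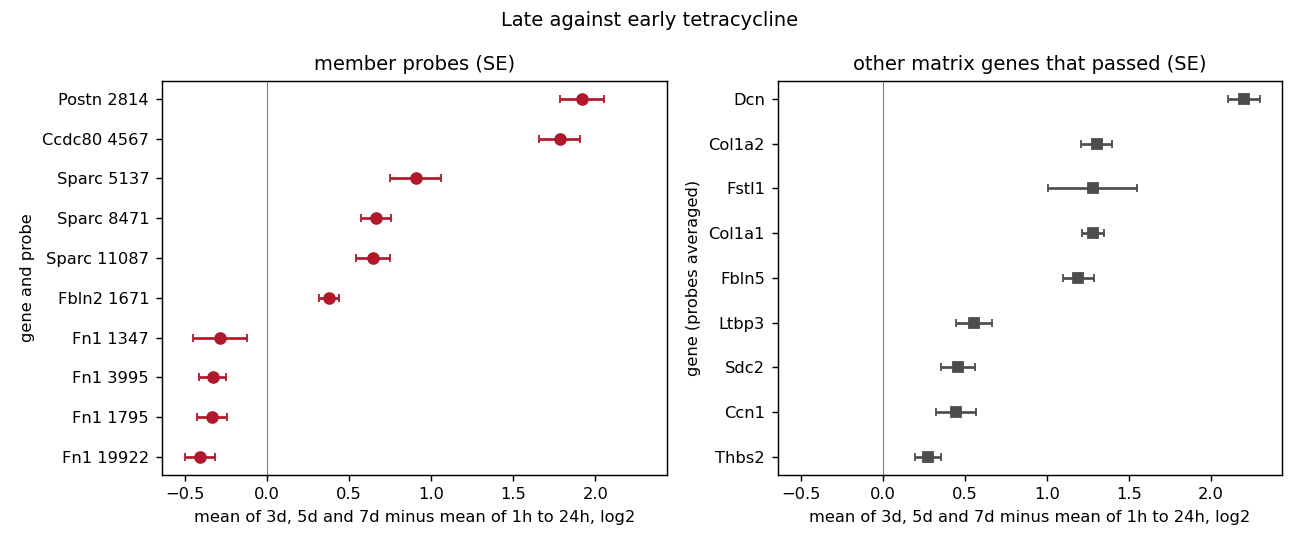
Mean of 3, 5 and 7 days minus mean of 1 to 24 h (horizontal axis, log2) for the member probes (left) and other matrix and receptor genes (right). The genes on the right were picked from the list genes that passed as higher. List genes that passed but are not drawn are Pdgfrb (0.50) and, as lower, S100a4 (-1.54), Cdh5 (-1.06) and Vim (-0.93). Bars are the SE of the fit. Postn (1.92) and Ccdc80 (1.78) lie far to the right, Fn1 to the left, and Dcn (2.20) beyond all members.

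Across the 35 arrays, with each probe's dye effect taken out, Postn and Ccdc80 correlated at r = 0.82. Postn correlated with the Sparc probes at 0.58 to 0.63 and with Fbln2 at 0.46. With the 4 Fn1 probes measured on all 35 arrays it correlated at -0.43 to -0.27. These values describe arrays that share 1 kind of RNA in channel 2 and fall into 9 groups, and they carry no p-value.

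Among all named probes, those most like Postn were Mn1 (r = 0.90), Col5a2 (0.87) and the proteoglycan decorin, Dcn (0.87). Most like Sparc probe 5137 were Atoh8 (0.92), Col1a2 (0.92) and Col1a1 (0.91), the last being the chains of type I collagen. Most like Ccdc80 were Nfic (0.89), Itm2b (0.88) and Lox (0.88), the enzyme that cross-links collagen. Fbln2 was followed by Pak3 (0.81), Lpl (0.79) and Serpina1b (0.75), and Fn1 probe 1347 by Slpi (0.78), Wipi2 (0.78, over 34 arrays) and Lpar2 (0.77). Other than Wipi2, each of these r is over 35 arrays. Fn1 probe 1347 was taken as the lowest row among the Fn1 probes with the most values. Its own r with the other Fn1 probes was 0.35 to 0.79, over 35 arrays or 27 for probe 18348. Slpi, Wipi2 and Lpar2 are thus the genes most like this probe, not Fn1 as a whole.

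Some fibroblast markers ran with the members and others against them. The markers, and the gene lists that follow, were chosen with earlier results of these data known. Their adjusted p-values are therefore a description. Decorin averaged -1.87 at 1 h against 0.02 untreated, and was lower by -1.84 (SE 0.20, limma adjusted p = 3.46e-06). At 7 days it averaged 1.53 against 0.02 untreated and was higher by 1.56 (SE 0.20, limma adjusted p = 6.85e-05). Col1a1 was lower at 1 h by -1.29 (SE 0.14, limma adjusted p = 3.46e-06) and higher at 7 days by 1.11 (SE 0.14, limma adjusted p = 5.64e-05). Col1a2 was lower at 1 h (-1.01) and higher at 7 days (1.32), and the receptor Pdgfrb was higher at 7 days (0.75, SE 0.18, limma adjusted p = 0.0358). The intermediate filament vimentin (Vim) was lower at 5 days (-1.09, SE 0.25, limma adjusted p = 0.0118), and the calcium-binding S100a4 was lower at 5 days (-1.25) and 7 days (-1.09). Late against early, Vim (-0.93) and S100a4 (-1.54) were lower too. Of the 8 fibroblast markers tested, 3 were lower at 1 h and none higher, 2 were higher and 2 lower at 5 days, 4 higher and 1 lower at 7 days, and 4 higher and 2 lower late against early. Over all genes, 0.135% were called lower at 1 h, 1.29% higher and 0.890% lower at 5 days, 0.476% higher and 0.391% lower at 7 days, and 3.52% higher and 3.92% lower late against early. These shares count each probe without a single gene symbol as its own row. The part of the markers in the members' course was not tested. None of the epithelial (5 at most tested), blood (2) or endothelial (3 at most) markers passed against untreated at any time. Late against early the endothelial marker Cdh5 was lower, by -1.06 (SE 0.18, limma adjusted p = 0.00011).

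Other genes of the same families were read from lists. Of 20 further matricellular genes 14 were tested against untreated, and only thrombospondin 2 (Thbs2), an inhibitor of vessel growth, passed: it was higher by 0.95 at 5 days (SE 0.17, limma adjusted p = 0.00117) and by 0.78 at 7 days (SE 0.17, limma adjusted p = 0.0189). Over all genes 1.29% were called higher at 5 days. The median difference of this list was -0.17 at 1 h and -0.01 at 7 days, beside 0.02 over all genes at both times. Late against early, Fstl1 (1.28, SE 0.27, limma adjusted p = 0.0021), Ccn1 (0.44, SE 0.12, limma adjusted p = 0.0213) and Thbs2 (0.28, SE 0.08, limma adjusted p = 0.0335) were higher and none lower, of 14 tested, where 3.52% of all genes were called higher. Fstl1, Ccn1, Ltbp3 and Sdc2 are named for this comparison after their values were seen.

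Among 17 fibulin and elastic fibre genes, 11 were tested at 5 days and 10 at 7 days. Fibulin-5 (Fbln5), which is needed to build elastic fibres, was higher by 0.83 at 5 days (SE 0.19, limma adjusted p = 0.0133) and by 1.20 at 7 days (SE 0.19, limma adjusted p = 0.000974). At 7 days it averaged 1.15, against -0.07 untreated. Late against early, Fbln5 was higher by 1.19 (SE 0.09, limma adjusted p = 1.62e-10). Ltbp3, a latent TGF-beta binding protein, passed too (0.55, SE 0.11, limma adjusted p = 0.000973). These were 2 higher and 0 lower of 10 tested, where 3.52% of all genes were called higher.

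No gene of the adhesive and basement membrane list (laminins, nidogens and the like, 8 or 9 tested at each time) passed against untreated. None of the matrix receptors (12 to 16 tested) or of 8 focal adhesion genes did either. Their medians at 7 days were -0.17, 0.01 and 0.01. Syndecan 2 (Sdc2), a heparan sulphate receptor that helps cells to lay down fibronectin, was higher late than early by 0.46 (SE 0.10, limma adjusted p = 0.00391), the sole receptor of 11 tested. A p that misses the threshold does not show that these genes were unchanged.

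The members' signs by dye are a description only, because the genes were chosen with the turned values known. No share over all probes was taken for the counts below. After turning, the mean of the 2 Cy5 arrays and that of the 2 Cy3 arrays had the same sign in 66 of 86 combinations of probe and time. The count was 8 of 8 for Ccdc80, 7 of 8 for Postn and 22 of 24 for Sparc. It was 25 of 38 for Fn1 and 4 of 8 for Fbln2, whose values lay nearer to 0. In the untreated group, after turning, r over all probes was -0.45 and -0.38 between arrays of opposite dye and 0.43 between both Cy3 arrays, so a dye difference in that group can enter each difference from untreated.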

How the data were processed

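The deposited values are log2 ratios of 36 arrays and 20355 probes. The scanner software, background correction and normalization are not given in the sources used here. The 2807 values above 12 (a shared ceiling) were dropped, arrays were centred on their medians (-0.533 to 0.745) and Cy3 arrays were multiplied by -1. The 5 and 7 day values were moved back by 0 to 4 rows at 4 points found from missing values and absolute size, and 407 probes were left out there; 5 day replicate 1 was displaced by 1 further row throughout and was moved back too. Of the probes, 14030 have 1 gene symbol in the platform annotation, 5 several and 6320 none. Group means and a dye effect per probe were fitted to 35 arrays by least squares with limma 3.58.1's moderated variances (R 4.3.3). A probe needed 3 values in each group compared, and "called" or "passed" is an adjusted p under 0.05 (Benjamini-Hochberg over all probes, or over genes with their probes averaged for the lists). Shares over all genes, and that adjustment, count each probe without a single symbol as its own row, while medians over all genes use named genes. Members and lists were chosen with earlier results of these data known. All member probes are named, and per member gene the 3 named probes with the highest r (33 values or more), and list genes that passed against untreated. The fit was tested on simulated data with 1 spread per probe for all groups. That simulation lacks the wider spread of the late arrays, so it does not show how the fit behaves under it. Python 3.11.15 was used for the rest.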

Additional observations from a re-analysis of the deposited data

Results flagged for a closer look

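One array stood apart from its group among the 86 groups of 4 arrays examined for the 11 probes, where chance gives about 1 in 20. Fn1 probe 1347 on 4h replicate 1 read -0.20, with the nearest of the other 3 arrays at 0.28. The gap was 0.846 of the group's range, above Dixon's critical value for groups of this size.

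Differences between times, each from the limma fit, passed as follows. From 24 h to 3 days Postn was higher by 1.83 and Ccdc80 by 1.41. From 3 to 5 days Fbln2 was higher by 0.75. From 5 to 7 days Postn was higher by 1.53 and Sparc probe 8471 by 0.69, and Fn1 probes 3995 and 19922 differed by -0.81 and -0.89. Over 3 to 7 days against 1 to 24 h, Postn was higher by 1.92, Ccdc80 by 1.78, Sparc probes 5137, 8471 and 11087 by 0.90, 0.66 and 0.65, and Fbln2 by 0.38. Fn1 probes 1795, 3995 and 19922 differed by -0.33, -0.33 and -0.41 in that comparison. These genes were chosen with the same arrays known.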

How the results depend on the processing

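With other settings the median difference of the member genes from untreated moved beyond the spread as follows. With arrays not centred it was -0.86 at 1 h, -0.55 at 2 h, -0.29 at 12 h, -0.52 at 24 h, 0.16 at 5 days and 0.66 at 7 days. Over all probes the uncentred median difference was -0.19, -0.21, -0.19, -0.19, -0.22 and -0.27 at these times. With arrays centred the median over all probes lay between -0.02 and 0.01. With arrays scaled the members' median was -0.91 at 1 h, -0.48 at 2 h, 0.30 at 5 days and 0.66 at 7 days. With quantile normalization it was -1.02 at 1 h, -0.76 at 2 h, -0.59 at 4 h, -0.45 at 24 h, 0.29 at 5 days and 0.63 at 7 days. With the 5 and 7 day rows as deposited it was 0.0762 at 5 days and 0.45 at 7 days. With the Cy3 arrays not turned it was 0.18, 0.26, 0.34, 0.23 and 0.19 at 1, 2, 4, 12 and 24 h, 0.27 at 5 days and 0.10 at 7 days. Leaving out 1 replicate at a time gave -0.75 to -0.59 at 1 h, -0.41 to -0.26 at 2 h, -0.31 to -0.10 at 4 h, -0.22 to -0.0246 at 12 h, -0.43 to -0.25 at 24 h, -0.22 to 0.23 at 3 days, 0.26 to 0.44 at 5 days and 0.79 to 1.09 at 7 days. The 13 member calls against untreated became 5 with arrays not centred, 22 with a dye effect per group, 32 with array weights, 8 with rows as deposited, 25 without the 3 day arrays (chosen after seeing the data), 0 with the arrays not turned and 0 with only the groups compared. They became 1 to 17 with 1 replicate left out, 1 being without replicate 4 and 5 without replicate 3. Calls over all probes at 1 h and 7 days were 37 and 184 in the main fit. They were 19 and 108 uncentred, 88 and 449 with a dye effect per group, and 978 and 297 with array weights. With rows as deposited they were 19 and 147, without the 3 day arrays 125 and 558, and not turned 171 and 854. Without replicate 4 they were 14 and 33, and without replicate 3 they were 9 and 55. With only the groups compared, no probe at all was called against untreated. All ranges with 1 replicate left out cover leaving out a replicate of every group and leaving out 1 untreated array. The 9 late against early calls became 0 with arrays not turned and 7 to 9 with 1 replicate left out. Over all probes 1277 were called late against early in the main fit, and 976 with arrays not turned. Without turning, signs reversed for Postn at 1 to 24 h (0.31, 0.58, 0.70, 0.23 and 0.38), Sparc probe 11087 at 3 and 7 days (-0.80 and -0.14) and Fn1 probes 1795, 3995 and 19922 at 7 days (0.36, 0.18 and 0.43). They also reversed from 24 h to 3 days for Postn (-0.45) and Ccdc80 (-0.12), from 3 to 5 days for Fbln2 (-0.00125), and from 5 to 7 days for Fn1 probes 3995 (0.00075) and 19922 (0.054). Late against early they reversed for Postn (-0.18), Fn1 probe 1795 (0.12), Sparc probes 5137, 8471 and 11087 (-0.25, -0.10 and -0.12) and Ccdc80 (-0.14). With rows as deposited Fn1 probe 19922 reversed at 7 days (0.0671) and late against early (0.32). The cause of these changes was not tested beyond the settings' own construction. Between groups, residuals of arrays with the same replicate number correlated at -0.188 to 0.134 (median -0.0569). For arrays of the same dye but another number it was -0.214 to 0.134 (median -0.0561). No pairing by number was seen, which does not show that there was none. With the replicate block the 13 and 9 calls were unchanged in number, while Sparc probe 8471 from 5 to 7 days (0.69) was no longer called.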
